A study of Mus musculus with 13 samples.

Results

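The leptin receptor (Lepr) transcript reached the level asked for in 8 of the 13 libraries of the series, and these 8 form the comparison described here: 5 from fibrous tissue and 3 from bone around tibia implants of mice. Libraries were selected on the measured Lepr level itself: a library was kept when Lepr was at 5 or more raw CPM (counts scaled to a common library total). As the counts chose the members, the Lepr level of the members is a description and not a result. The nearest library inside the threshold was bone 1 at 52.8 CPM and the nearest outside was bone 5 at 2.61 CPM. The other 4 libraries left out (bone 3, bone 4, fibrous 1 and fibrous 5) lay between 0.371 and 0.665 CPM.

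All 13 libraries were made from polyA RNA of cells that the submitters describe as lineage-negative and leptin receptor positive, obtained by flow sorting. In the fibrous group the implant is named PMMA. In the bone group it is named Pressfit. Both groups therefore differ in implant as well as in tissue, and the 2 cannot be told apart. No genotype, transgene, strain, sex, age or time after implantation is given in the sources used here, and nothing there says that libraries came from separate animals. The p-values below accordingly measure the spread between libraries, which may be technical. Library names fell into a series with the token L002 (bone 1 and 2, fibrous 2, 3 and 4) and a series with the token XY.9274 (bone 6, fibrous 6 and 7). The series was a term of the fit of the 8 libraries, other than in 1 alternative without it. The contrast within XY.9274 rests on bone 6 alone.

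Cells that carry the leptin receptor are the main stromal cells of adult bone marrow. They wrap around sinusoids, secrete the chemokine Cxcl12 and the growth factor Kitl that hold blood stem cells in the marrow, and transcribe adipocyte genes such as Adipoq without storing fat. They also give rise to adipocytes and to bone-forming cells, including after injury. Fibrous tissue at an implant is a collagen-rich layer that stands where bone would otherwise bond to the surface.

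The 3 bone libraries held between 22409369 and 30286397 counts and the 5 fibrous libraries between 22955240 and 44302166. Between 15074 and 17166 genes were detected in bone libraries and between 16706 and 20146 in fibrous libraries. Of the 14635 genes that passed the filter on low counts, 13.8% were at 0 counts in bone 1, 11.1% in bone 2 and 7.39% in bone 6. In fibrous 2, 3, 4, 6 and 7 the shares were 4.35%, 5.91%, 6.07%, 2.94% and 0.875%, all below those of the bone libraries. Fibrous 4, with 22955240 counts, was as shallow as bone 1 and 2 and had a lower share of genes at 0. The filter could be passed through the fibrous libraries alone, so counts over tested genes favour genes that are high there. In these bulk libraries fewer cells of a type and less RNA per cell cannot be told apart.

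**Figure D1:**
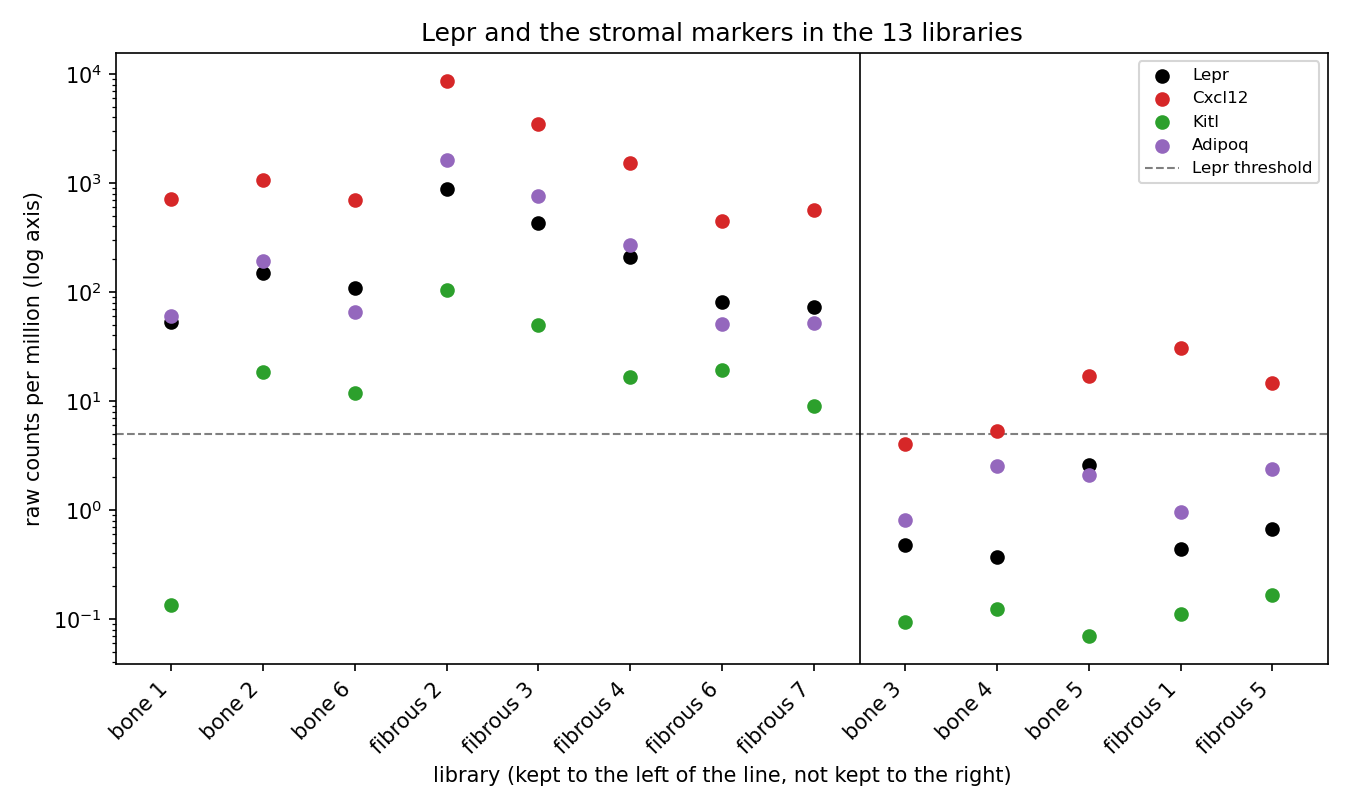
Raw CPM (log axis) of Lepr, Cxcl12, Kitl and Adipoq in each of the 13 libraries, 1 point per gene and library, with the Lepr threshold of 5 CPM as a dashed line. Kept libraries stand left of the vertical line, and Kitl in bone 1, at 0.134 raw CPM, is the only marker of a kept library that lies at the level of the libraries left out.

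All 4 stromal markers were above their levels in the libraries left out in 7 of the 8 libraries, the exception being Kitl in bone 1. From here on values are CPM scaled by the TMM factor of each library (normalised CPM), given in the order bone 1, 2 and 6 and fibrous 2, 3, 4, 6 and 7. Lepr (ENSMUSG00000057722; chromosome 4, 101717404 to 101815352, plus strand) was at 53.5, 154 and 110 CPM in bone and at 922, 471, 215, 72.9 and 66.2 CPM in fibrous libraries. Cxcl12 was at 719, 1089 and 706 CPM in bone and at 9135, 3812, 1566, 407 and 516 CPM in fibrous libraries. Adipoq was at 61.4, 198 and 65.7 CPM in bone and at 1715, 834, 275, 46.2 and 47.9 CPM in fibrous libraries. For these 3 genes every L002 fibrous library lay above every bone library, while fibrous 6 and 7 lay below bone 6. Kitl was at 0.136, 19.1 and 12.02 CPM in bone and at 110, 54.2, 17.0, 17.4 and 8.28 CPM in fibrous libraries, with bone 1 close to 0. The fitted differences of Cxcl12 (log2 fold change 1.18, SE 0.84), Kitl (1.62, SE 1.37) and Adipoq (1.48, SE 0.97) did not pass (edgeR adjusted p = 0.884, 0.914 and 0.857).

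Fibrous and bone libraries were compared gene by gene to find what distinguishes the stromal cells of the 2 tissues once libraries without Lepr are set aside. No gene passed an adjusted p of 0.05 by edgeR in either direction (0% of 14635, smallest adjusted p = 0.616). An unadjusted p below 0.05 was reached by 913 genes, or 6.24% of those tested: 732 with higher values in fibrous libraries (5.00%) and 181 with lower values (1.24%). By limma-voom 0 genes passed (smallest adjusted p = 0.163), and 1099 reached an unadjusted p below 0.05 (7.51%). DESeq2 called 334 genes higher (2.28%) and 45 lower (0.307%). Of its 379 calls, 222 did not overlap between the groups, and 65 of the 334 higher calls were at 0 counts in all 3 bone libraries. The DESeq2 counts moved with single libraries: 730 higher and 116 lower without bone 1, 690 and 164 without bone 6, 163 and 25 without fibrous 2, and 217 and 22 without fibrous 3. Without fibrous 6 or fibrous 7 it called 25 or 24 genes lower. The common biological coefficient of variation was 0.842. Genes given below with a DESeq2 adjusted p alone did not pass this comparison of tissues by edgeR.

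Over all tested genes, 413 lay above the bone range in all 5 fibrous libraries (2.82%) and 176 lay below it (1.20%). These counts were 1053 and 604 without bone 1, 848 and 588 without bone 2, 1441 and 821 without bone 6, and 705 and 384 without fibrous 4. The median log2 fold change over all genes was 0.05, and 53.4% of genes had a value above 0 and 46.6% a value below 0. Over the whole matrix 91 genes were at 0 counts in all 3 bone libraries and above 0 in all 5 fibrous libraries, and 4 genes showed the converse, which takes 5 libraries at 0 in place of 3. Of the 91, only Klf15, Eln and Tmem117 averaged at least 5 CPM in fibrous libraries. Tmem117, chosen after its values were seen, was at 6.01, 0.426, 5.73, 4.86 and 8.59 CPM there, at least 128-fold higher against a floor of 3 counts over the bone group.

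The 15 genes of smallest p with higher values in fibrous libraries were Cd34, Sned1, Ccr7, Skil, Phka1, Rhobtb3, Peak1, Ddx54, Zfand2a, Cdr2l, Tspan9, Nynrin, Efemp1, Cxcl9 and Tanc1, none past 0.05 by edgeR and all past it by DESeq2. All but Efemp1 and Cxcl9 lay above the bone range in every fibrous library, against 2.82% over all genes. A pick by small p favours such genes, so this is no separate result. Of the 15, 7 had a single count over the 3 bone libraries. The first was Cd34 (ENSMUSG00000016494; chromosome 1, 194938819 to 194961279, plus strand), a surface sialomucin of blood progenitors, endothelium and adventitial fibroblasts. It was at 0, 0.0447 and 0 CPM in bone and at 20.5, 12.6, 6.35, 8.36 and 6.09 CPM in fibrous libraries. The groups were far apart, with 1 count over 3 bone libraries and 1718 over 5 fibrous libraries. The ratio of the summed levels was 750, with an exact 95% interval from 134 to 29627 that covers counting error only (edgeR adjusted p = 0.616, DESeq2 adjusted p = 6.6e-09).

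As Cd34 also marks endothelium, the endothelial list stands beside it. Of its 22 genes in the matrix 12 were tested. Their median log2 fold change was -0.10, or 0.10 without bone 1 and 0.19 without bone 6, and their summed level ran from 81.5 to 165 CPM in bone and from 96.1 to 141 CPM in fibrous libraries. Pecam1, an adhesion molecule of endothelium and leukocytes, was at 0.497, 7.92 and 0.0993 CPM in bone and at 0.391, 0.553, 0.267, 36.9 and 13.2 CPM in fibrous libraries. Of the 10 untested genes, Cdh5, Emcn, Robo4, Flt1, Tie1, Sox18 and Cldn5 were at 0 in all 3 bone libraries. In fibrous libraries Cdh5, the endothelial cadherin, reached 0.597 CPM, Emcn 0.454, Flt1 4.32, Tie1 3.23, Sox18 2.13 and Cldn5 0.145 CPM, and Robo4 was at 0 in all 8. Mmrn2, Flt4 and Ushbp1 reached 0.452, 0.0447 and 0.0452 CPM in bone and 0.227, 0 and 2.27 CPM in fibrous libraries. The part of endothelial RNA in the Cd34 values was not tested. Clec14a, an endothelial lectin-like receptor, was at 0, 0 and 1.23 CPM in bone and at 17.7, 7.91, 7.82, 2.02 and 4.83 CPM in fibrous libraries (DESeq2 adjusted p = 0.013). It was the 1 of the 12 that did not overlap (8.33%, against 2.82% over all genes). DESeq2 called 1 of the 12 higher, Clec14a, and 1 lower, Adgrl4, against 2.28% and 0.307% over all genes. Adgrl4, an adhesion receptor, was at 10.8, 5.90 and 1.95 CPM in bone and at 0, 0, 0, 3.93 and 0 CPM in fibrous libraries. Its log2 fold change was -8.25 (SE 3.58; edgeR adjusted p = 0.774, DESeq2 adjusted p = 0.0031).

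Sned1 (ENSMUSG00000047793; chromosome 1, 93235841 to 93301065, plus strand), which encodes a secreted glycoprotein of the extracellular matrix, was at 0, 0.0447 and 0 CPM in bone. In fibrous libraries it was at 48.4, 9.83, 6.71, 6.71 and 7.29 CPM, with fibrous 2 far above the other 4. Its ratio was 1057 (exact 95% interval 190 to 41778, counting error only). The 250 bases before the annotated starts of Cd34 and Sned1 (RefSeq, GRCm38.p6) are shown because these 2 genes lead the list and were both at 1 count in bone. Capitals mark the GC box letters GGGCGG, searched on both strands together with TATAAA and CCAAT. Cd34 is chr1:194938571-194938820 and Sned1 is chr1:93235647-93235896, both on the plus strand:
Cd34: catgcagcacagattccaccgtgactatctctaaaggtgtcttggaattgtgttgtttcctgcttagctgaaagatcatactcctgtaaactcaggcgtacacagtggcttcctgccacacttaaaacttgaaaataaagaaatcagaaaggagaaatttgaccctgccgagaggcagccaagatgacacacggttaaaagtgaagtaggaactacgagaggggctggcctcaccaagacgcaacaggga
Sned1: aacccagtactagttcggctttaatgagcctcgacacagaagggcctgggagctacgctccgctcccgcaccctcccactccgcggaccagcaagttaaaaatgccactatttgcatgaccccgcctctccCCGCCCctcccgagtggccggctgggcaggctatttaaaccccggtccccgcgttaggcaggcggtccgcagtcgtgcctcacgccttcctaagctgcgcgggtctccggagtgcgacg
The Cd34 window was 46.4% G and C and held none of the 3 motifs, and the Sned1 window was 64% G and C and held 1 GC box. Of 32851 such windows 32.7% held the GC box letters, 12.4% TATAAA and 33.8% CCAAT. A match in these letters is a description and marks no site.

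Skil (ENSMUSG00000027660; chromosome 3, 31095058 to 31122577, plus strand), a feedback repressor of Smad transcription that TGF-beta itself induces, was at 0.452, 0.0895 and 0.894 CPM in bone. In fibrous libraries it was at 5.22, 3.45, 5.24, 39.8 and 23.7 CPM. The groups did not overlap, and fibrous 6 and 7 were several times above fibrous 2 to 4 (log2 fold change 4.46, SE 0.77; edgeR adjusted p = 0.616, DESeq2 adjusted p = 1.9e-09). Over all 13 libraries its fold change was -0.18. Ccr7, a chemokine receptor of T cells and migrating dendritic cells, was at 0, 0.0447 and 3.11 CPM in bone and at 3.80, 7.66, 7.06, 83.5 and 42.5 CPM in fibrous libraries, again highest in fibrous 6 and 7. Over all 13 libraries its log2 fold change turned to -0.70, against 5.74 (SE 0.98) in the 8.

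Other genes of this group were expressed in both tissues. Rhobtb3, a protein of the Golgi, was at 1.72, 2.42 and 2.75 CPM in bone and at 13.3, 12.9, 9.95, 14.6 and 25.5 CPM in fibrous libraries (log2 fold change 2.65, SE 0.49). Ddx54, a nucleolar RNA helicase, was at 39.1, 42.1 and 56.3 CPM in bone and at 77.3, 72.0, 82.0, 85.4 and 84.3 CPM in fibrous libraries (log2 fold change 0.80, SE 0.16), one of the tightest of the list. Zfand2a, a stress-induced partner of the proteasome, was at 11.5 ± 4.18 CPM (SD, n = 3) in bone and at 33.4 ± 4.85 CPM (n = 5) in fibrous libraries. These 3 genes had positive fold changes in both name series. Efemp1, or fibulin-3, a matrix glycoprotein, was at 7.997, 4.03 and 0.861 CPM in bone and at 32.6, 32.7, 16.6, 4.75 and 4.77 CPM in fibrous libraries, so that fibrous 6 and 7 lay inside the bone range. Cxcl9, a chemokine induced by interferon gamma, was at 16.5, 18.6 and 1.95 CPM in fibrous 2, 3 and 4 but at 0.0412 and 0.248 CPM in fibrous 6 and 7, close to the single count of the bone group.

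**Figure D2:**
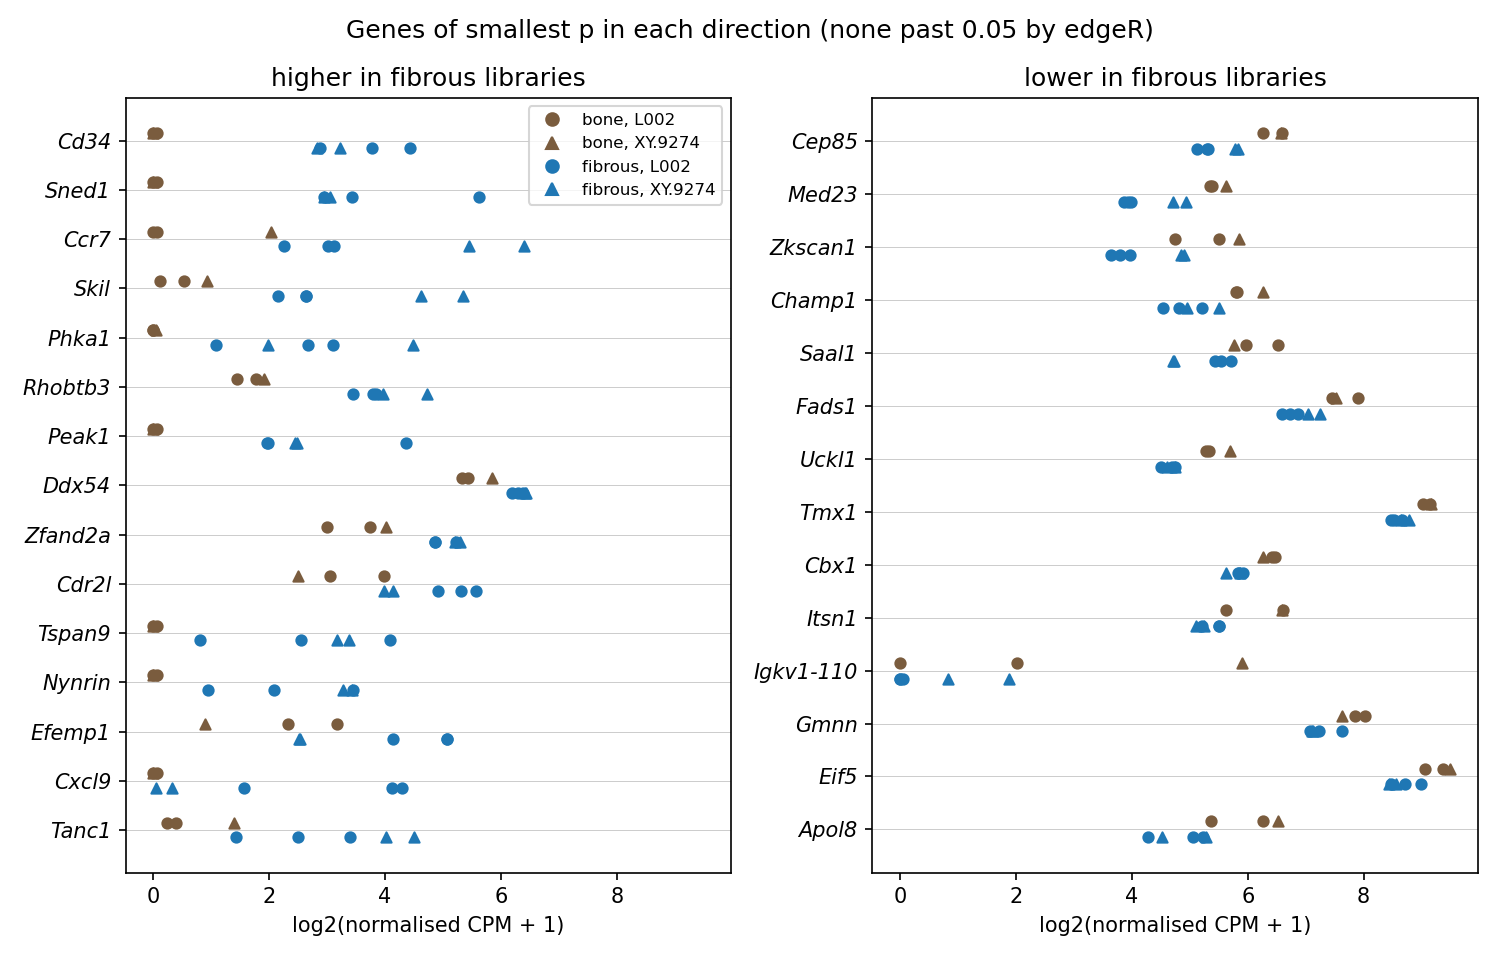
Log2(normalised CPM + 1) of the 15 higher and 14 lower genes named among those of smallest p, 1 point per library, brown for bone, blue for fibrous, circles for L002 and triangles for XY.9274. The genes on the left are mostly near 0 in bone, whereas those on the right, apart from Igkv1-110, are expressed in all 8 libraries and differ by a log2 fold change between -0.50 and -1.28.

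Described for the opposite direction are 14 of the 15 genes of smallest p with lower values in fibrous libraries: Cep85, Med23, Zkscan1, Champ1, Saal1, Fads1, Uckl1, Tmx1, Cbx1, Itsn1, Igkv1-110, Gmnn, Eif5 and Apol8. None passed by edgeR, and 12 of the 14 lay below the bone range in every fibrous library, against 1.20% over all genes. As they were picked by small p in the same fit, this count describes the pick and is no separate result. Cep85 (ENSMUSG00000037443; chromosome 4, 134129858 to 134187112, minus strand), a centrosome protein, was at 75.5, 95.9 and 94.0 CPM in bone and at 33.8, 38.6, 38.7, 54.3 and 56.1 CPM in fibrous libraries. Its log2 fold change was -1.06 (SE 0.18; edgeR adjusted p = 0.616, DESeq2 adjusted p = 0.000163). Med23, a subunit of the Mediator complex that links transcription factors to RNA polymerase II, was at 39.8, 40.7 and 48.4 CPM in bone and at 14.8, 13.6, 14.2, 25.3 and 29.6 CPM in fibrous libraries (log2 fold change -1.27, SE 0.24). For both genes the L002 fibrous libraries were lowest.

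Fads1, the delta-5 fatty acid desaturase, was at 198 ± 34.0 CPM (SD, n = 3) in bone and 120 ± 21.96 CPM (n = 5) in fibrous libraries. Uckl1, a uridine kinase-like enzyme, was at 42.7 ± 6.90 and 24.3 ± 1.75 CPM, and Cbx1, the heterochromatin protein HP1 beta, at 82.7 ± 5.93 and 55.6 ± 4.19 CPM. Tmx1, a thioredoxin-like protein of the endoplasmic reticulum, was at 553 ± 29.8 and 393 ± 34.4 CPM (log2 fold change -0.50, SE 0.13), the smallest difference among the 14. Gmnn, or geminin, which blocks re-licensing of DNA replication, was at 260, 231 and 197 CPM in bone and at 134, 150, 197, 139 and 137 CPM in fibrous libraries, with fibrous 4 next to bone 6. DESeq2 did not call Gmnn (adjusted p = 0.082), Eif5 (0.050) or Apol8 (0.069). Igkv1-110, an immunoglobulin light chain segment, was at 59.0 CPM in bone 6 and at most at 3.04 CPM in the other 7 libraries.

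Matrix genes were compared next, by 45 gene lists whose members were counted without a test. Basement membranes are sheets of type IV collagen, laminin, nidogen and perlecan that lie under epithelia and endothelia and around adipocytes and mural cells. Of 17 tested members (24 listed, 23 in the matrix), 16 had higher values in fibrous libraries, and the median log2 fold change was 1.60, against 0.05 over all genes. It was 1.62 in L002 alone and 1.97 in XY.9274 alone. Of the 17, 5 lay above the bone range in every fibrous library, or 29.4%, against 2.82% over all genes, and DESeq2 called 4, against 2.28%. The summed level was between 181 and 362 CPM in bone and between 308 and 898 CPM in fibrous libraries.

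Col4a1 (ENSMUSG00000031502; chromosome 8, 11198423 to 11312826, minus strand), the alpha 1 chain of type IV collagen, was at 27.0, 15.3 and 18.5 CPM in bone. In fibrous libraries it was at 86.9, 50.6, 32.3, 66.6 and 50.6 CPM, above bone in each series (log2 fold change 1.51, SE 0.39; edgeR adjusted p = 0.721, DESeq2 adjusted p = 0.016). Its partner chain Col4a2 was at 0, 9.75 and 4.47 CPM in bone and at 98.2, 36.9, 28.5, 25.4 and 32.2 CPM in fibrous libraries. Both genes are transcribed away from one shared start region. Their RefSeq starts lie 21 bases apart, at 11312826 for Col4a1 on the minus strand and 11312805 for Col4a2 on the plus strand of chromosome 8 (GRCm38.p6). The first exons overlap by 22 bases, in which reads counted without strand could not be assigned. In bone 1 Col4a2 was at 0 counts although Col4a1 was at 27.0 CPM.

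Among laminin chains, Lamb1 was at 0, 0.403 and 7.29 CPM in bone and at 81.7, 59.1, 29.9, 24.3 and 21.5 CPM in fibrous libraries (log2 fold change 4.96; DESeq2 adjusted p = 0.0025). Lama1, an embryonic laminin alpha chain, was at 0 counts in bone and at 2.81, 0.0426, 2.00, 1.42 and 0.165 CPM in fibrous libraries, at least 32.0-fold higher on average. Fibrous 3 held a single count of Lama1, and the gene passed the filter through the fibrous libraries only. Npnt, or nephronectin, an integrin ligand of basement membranes, was at 1.54, 0.179 and 0.265 CPM in bone and at 5.33, 4.13, 5.15, 7.31 and 3.45 CPM in fibrous libraries (log2 fold change 3.06, SE 1.08; DESeq2 adjusted p = 0.023). These were low levels in every library. Dag1, which encodes dystroglycan, the laminin receptor, was at 23.0, 36.3 and 72.4 CPM in bone and at 138, 114, 63.0, 84.1 and 80.3 CPM in fibrous libraries, with fibrous 4 below bone 6. Itga6, a laminin-binding integrin chain, was the 1 member with a negative fold change, at 0.924, 3.32 and 0.133 CPM in fibrous 2, 3 and 4 against 11.3 and 22.6 CPM in bone 1 and 2. Col4a2, Lamb1 and Itga6 lay outside the naming rule and were chosen after their values were seen.

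**Figure D3:**
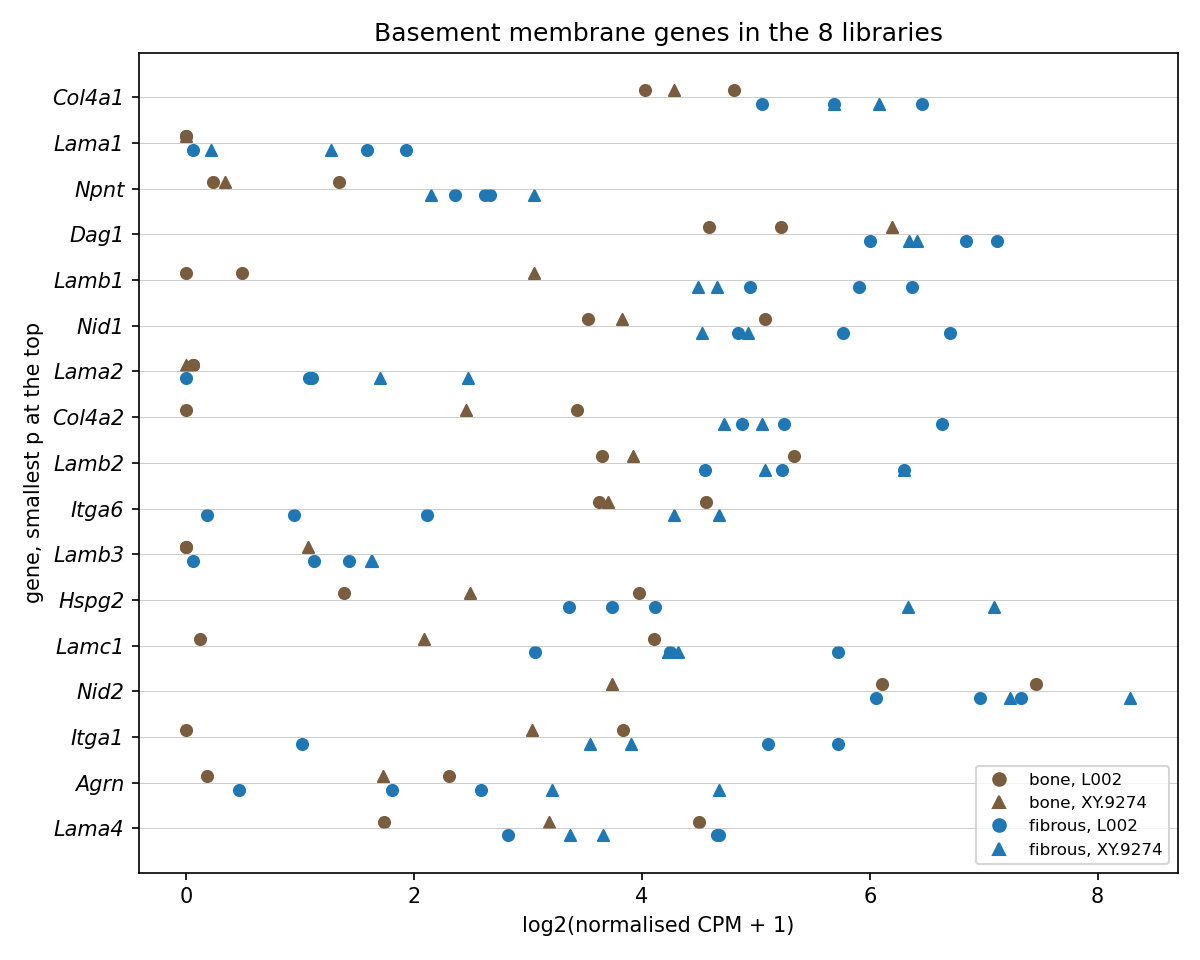
Log2(normalised CPM + 1) of the 17 tested basement membrane genes, 1 point per library, ordered by p with the smallest at the top. Col4a1, Lama1, Npnt, Lamb1 and Col4a2 are the 5 genes whose blue (fibrous) points all lie right of the brown (bone) points.

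Interstitial matrix genes had higher medians in fibrous libraries with more overlap. Of 26 fibrillar collagen and matrix genes 23 had positive fold changes (median 0.98), with 2 of 26 not overlapping (7.69%, against 2.82% over all genes). The median was 0.53 in L002, 1.93 in XY.9274, 0.54 without bone 6 and 1.505 without bone 1. Eln, or elastin, was at 0 counts in bone and at 12.9, 0.0851, 2.58, 2.94 and 9.79 CPM in fibrous libraries, at least 141-fold higher on average. Fbn1, or fibrillin-1, the scaffold on which elastin is laid down, was at 5.38, 2.06 and 6.19 CPM in bone and at 75.8, 49.3, 5.46, 37.5 and 84.2 CPM in fibrous libraries (log2 fold change 3.46, SE 0.90; DESeq2 adjusted p = 0.00073). Fibrous 4 was the 1 fibrous library within the bone range. Tnc, or tenascin-C, a matricellular protein of wounds and tendon, was at 228 ± 104 CPM (SD, n = 3) in bone and 486 ± 252 CPM (n = 5) in fibrous libraries (log2 fold change 1.15, SE 0.41).

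Collagen processing genes had a median of 0.56, 25 of 29 above 0, with a median of -0.18 within L002 and 2.06 within XY.9274. Leaving out bone 6 gave -0.17, bone 1 gave 1.15 and fibrous 7 gave 0.34. Lox, the lysyl oxidase that crosslinks collagen and elastin, was at 250, 115 and 63.8 CPM in bone and at 457, 393, 212, 145 and 187 CPM in fibrous libraries. P4ha3, a collagen prolyl hydroxylase chain, was at 6.82 ± 5.79 CPM (SD, n = 3) in bone and 21.5 ± 17.0 CPM (n = 5) in fibrous libraries, and Loxl1, an elastin crosslinker, at 18.0 ± 7.76 and 59.7 ± 54.3 CPM. Col8a1, a short-chain collagen, was at 75.5 ± 44.3 and 243 ± 180 CPM. All 4 overlapped between the groups.

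Of 28 matrix proteases and inhibitors 25 were above 0 (median 0.98) and 3 did not overlap (10.7%, against 2.82% over all genes). The median was 0.55 without bone 6 and 1.57 without bone 1. Mrc2, an endocytic receptor that clears collagen fragments, was at 0.0452, 0.134 and 12.2 CPM in bone and at 63.2, 52.0, 29.8, 40.01 and 62.3 CPM in fibrous libraries. Its log2 fold change was 5.33 (SE 1.71), or 8.94 in L002 and 2.08 in XY.9274 (edgeR adjusted p = 0.757, DESeq2 adjusted p = 7.4e-05). Bone 6 stood nearest to the fibrous libraries. Adamts1, a secreted protease of proteoglycans, was at 6.56 ± 6.10 CPM (SD, n = 3) in bone and 21.3 ± 4.76 CPM (n = 5) in fibrous libraries.

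Niche genes were highest in fibrous 2 and 3. Of 27 marrow niche genes 25 had positive fold changes, with a median of 1.29, and 1 did not overlap (3.70%, near the 2.82% over all genes). None passed by edgeR, and DESeq2 called Grem1 and Apoe higher, or 2 of 27, against 2.28% over all genes. The median was 1.93 in L002 and 0.16 in XY.9274, which has 1 bone library, and 1.94 without bone 6. That difference between the series was not tested for the list. The summed level was 22063 and 11365 CPM in fibrous 2 and 3 and between 1769 and 4731 CPM in the other 6 libraries. Grem1, an extracellular inhibitor of bone morphogenetic proteins (BMP) and a mark of skeletal stem cells, was at 0, 0 and 0.0331 CPM in bone. In fibrous libraries it was at 34.7, 11.0, 5.55, 4.90 and 0.599 CPM, above bone in each (DESeq2 adjusted p = 3.4e-06). Its ratio was 710 (exact 95% interval 127 to 28059, counting error only).

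Apoe, a lipoprotein component made by stromal cells and macrophages, was at 123, 118 and 54.6 CPM in bone and at 673, 478, 202, 147 and 103 CPM in fibrous libraries (log2 fold change 1.64, SE 0.41; DESeq2 adjusted p = 0.0053). Csf1, the macrophage growth factor, was at 41.8 ± 22.4 CPM (SD, n = 3) in bone and 94.6 ± 66.4 CPM (n = 5) in fibrous libraries. Klf15, a transcription factor of late adipocyte differentiation, was at 0 counts in bone and at 19.9, 10.7, 6.53, 0.0206 and 3.26 CPM in fibrous libraries, at least 201-fold higher on average. Fibrous 6 held a single count of it. Fabp4, the adipocyte fatty acid binding protein, was at 2.21, 1.92 and 1.69 CPM in bone and at 9.99, 9.62, 16.3, 3.38 and 2.85 CPM in fibrous libraries (log2 fold change 1.89, SE 0.68). Cebpb, an early adipogenic transcription factor, lay between 28.6 and 40.7 CPM in bone and between 40.9 and 94.0 CPM in fibrous libraries, a gap of little width, and its sign turned with bone 5 added (log2 fold change -0.60) or with all 13 libraries (-0.13). Klf15, Fabp4 and Cebpb were the non-overlapping members among 18 adipocyte genes (16.7%, against 2.82% over all genes). The list had a median of 1.46, or 0.96 without fibrous 2.

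**Figure D4:**
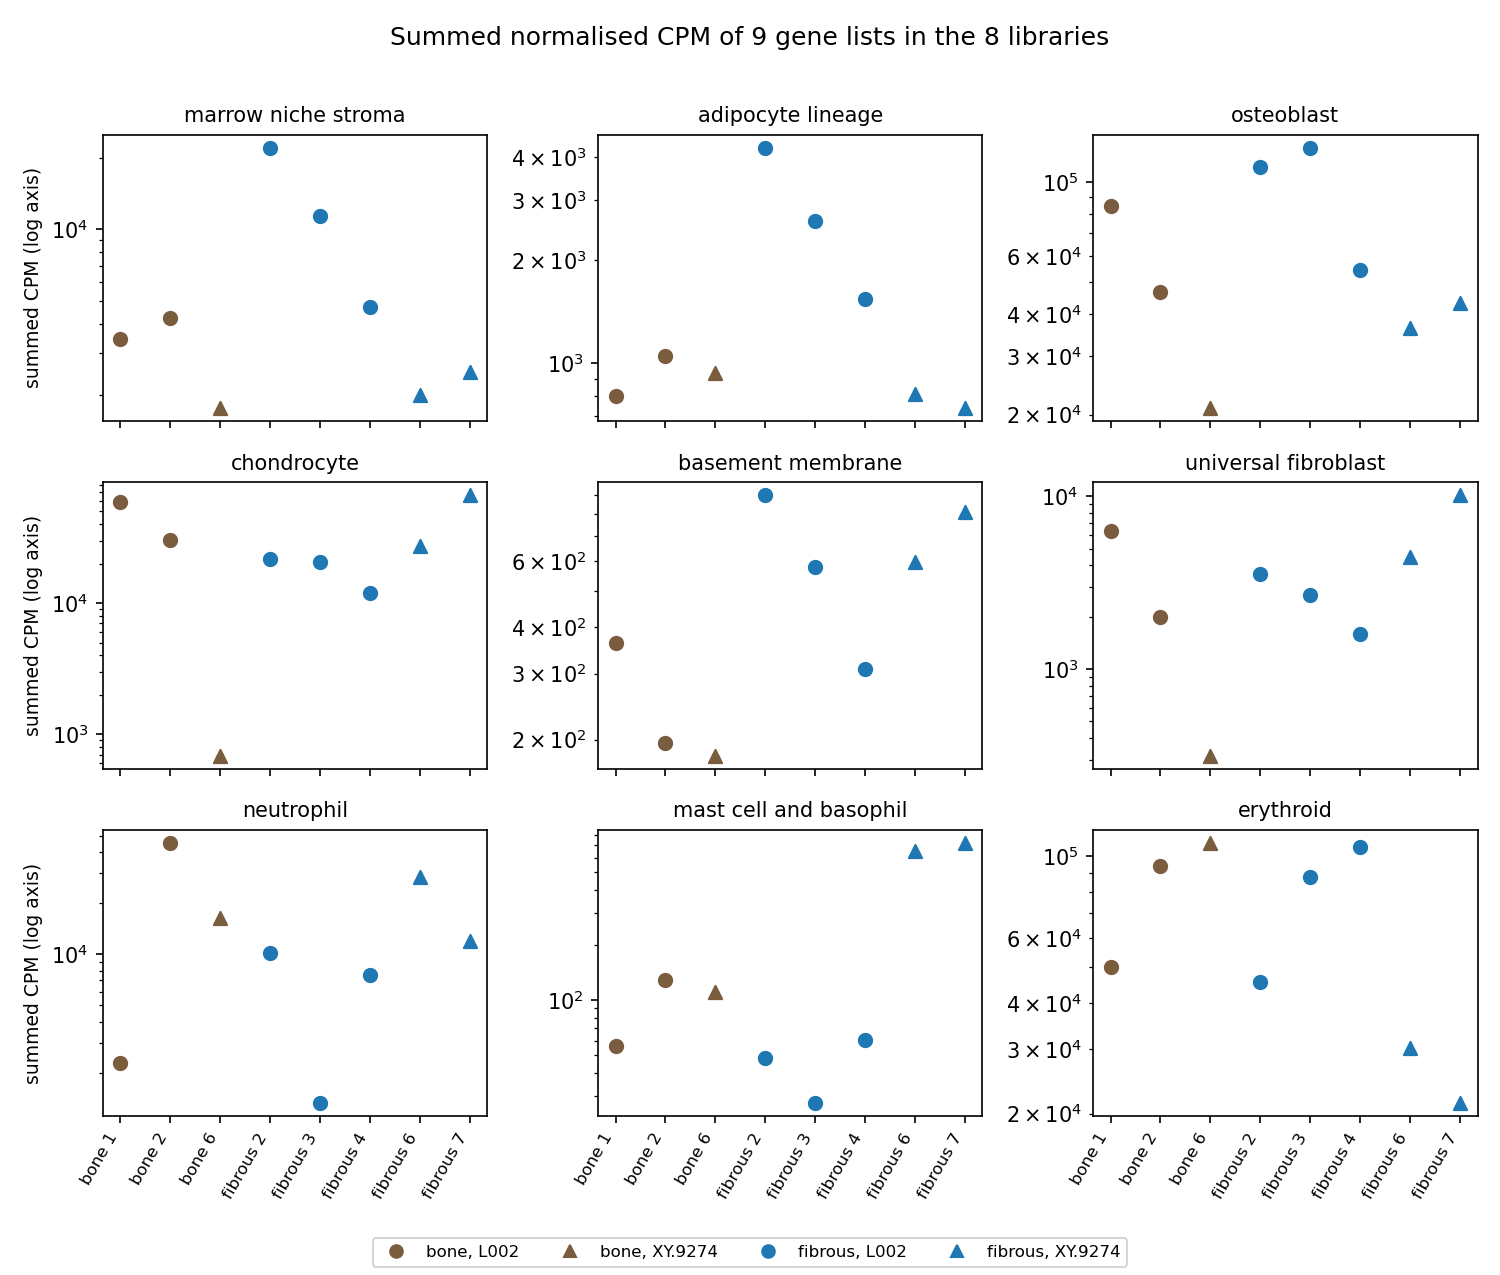
Summed normalised CPM (log axis) of the tested members of 9 gene lists in the 8 libraries, brown for bone, blue for fibrous, circles for L002 and triangles for XY.9274. Bone 6 is lowest for chondrocyte genes at 689 CPM, fibrous 2 and 3 are highest for niche genes, and fibrous 6 and 7 are highest for mast cell and basophil genes at 654 and 723 CPM.

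Fibroblast and perivascular genes included several that were near 0 in bone. The list of genes shared by fibroblasts of many organs had a median of 1.72, with 14 of 17 above 0, of which Cd34 alone did not overlap (5.88% of 17, against 2.82% over all genes). The median was 0.48 in L002, 6.80 in XY.9274 and 0.57 without bone 6. The list summed to 6308, 2011 and 318 CPM in bone and to 3576, 2698, 1594, 4464 and 10151 CPM in fibrous libraries, so the groups overlapped. Has1, a hyaluronan synthase, was at 0, 0.0895 and 0 CPM in bone and at 59.3, 10.8, 15.6, 0 and 5.45 CPM in fibrous libraries, so that fibrous 6 was as low as bone. Meox2, a mesodermal homeobox factor, had 1 count over bone and 10.4, 2.60, 2.18, 1.30 and 1.38 CPM in fibrous libraries (DESeq2 adjusted p = 0.00011). Mkx, a transcription factor of tendon, had 2 counts over bone and 4.41, 1.66, 0.444, 4.40 and 4.81 CPM in fibrous libraries (DESeq2 adjusted p = 0.00026).

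Of 9 tested mural cell genes 8 were above 0, with the highest median of the 45 lists (2.50). It was 1.11 without bone 1 and 5.55 without bone 6. Abcc9, a potassium channel subunit of pericytes, had 1 count over bone and 2.10, 3.19, 5.20, 1.67 and 6.94 CPM in fibrous libraries, the 1 member of 9 that did not overlap (11.1%, against 2.82% over all genes). Acta2, smooth muscle actin, was at 4.43, 30.3 and 1.82 CPM in bone and at 58.5, 69.7, 31.2, 7.94 and 15.9 CPM in fibrous libraries. Myh11, the smooth muscle myosin, was at or near 0 in 7 libraries and at 2.10 CPM in fibrous 6. Summed over the list, the level ran from 23.9 to 221 CPM in bone and from 105 to 370 CPM in fibrous libraries. Actg2, an actin of visceral muscle from the contractile list, had 3 counts over bone and 6.22, 7.74, 4.13, 0.803 and 1.05 CPM in fibrous libraries (DESeq2 adjusted p = 3.5e-06).

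Signalling lists had positive medians. TGF-beta signals through type I and II receptors to Smad proteins and drives matrix synthesis. Of its 28 genes 21 were above 0 (median 0.68) and 3 did not overlap (10.7%, against 2.82% over all genes): Skil, Ski and Tgif1, all of which encode repressors of Smad transcription. The median was 0.14 in L002, 1.61 in XY.9274, 0.16 without bone 6 and 1.38 without bone 1. Ski was at 3.93, 1.16 and 0.431 CPM in bone and at 12.3, 8.43, 5.38, 7.62 and 5.24 CPM in fibrous libraries (log2 fold change 2.40, SE 0.88; DESeq2 adjusted p = 0.042). Tgif1 was at 5.01, 0.716 and 1.46 CPM in bone and at 7.11, 17.1, 5.29, 52.3 and 21.4 CPM in fibrous libraries (log2 fold change 2.58, SE 1.03; DESeq2 adjusted p = 0.082). The gap to bone 1 was narrow for both. Tgfbr2, the type II receptor, was at 15.4, 25.1 and 14.6 CPM in bone and at 55.1, 47.4, 14.0, 61.5 and 75.9 CPM in fibrous libraries, with fibrous 4 at the bone level.

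Of 29 BMP genes 25 were above 0 (median 0.95), and DESeq2 called 3 higher, or 3 of 29 against 2.28% over all genes. The median was 0.53 without bone 6 and 0.48 without fibrous 7. Acvr1, a type I BMP receptor, was at 1.22, 0.224 and 0.0993 CPM in bone and at 16.1, 8.72, 4.09, 3.54 and 4.75 CPM in fibrous libraries (log2 fold change 4.21, SE 1.06; DESeq2 adjusted p = 0.00015). Id3, a direct target of BMP signalling, was at 189, 173 and 31.3 CPM in bone and at 436, 475, 182, 130 and 138 CPM in fibrous libraries (log2 fold change 1.37, SE 0.38; DESeq2 adjusted p = 0.027), with bone 6 lowest.

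Notch genes had 12 of 14 above 0 (median 0.98), and 2 did not overlap (14.3%, against 2.82% over all genes). The median was 0.35 in XY.9274, 0.62 without fibrous 2 and 0.64 without bone 2. Heyl, a Notch target, was at 8.13, 14.2 and 10.4 CPM in bone and at 69.3, 40.9, 24.3, 23.96 and 17.0 CPM in fibrous libraries (log2 fold change 1.62, SE 0.47; DESeq2 adjusted p = 0.034). Notch4, a receptor of vessels, was at 0 counts in bone and at 4.51, 1.02, 0.533, 3.44 and 0.929 CPM in fibrous libraries, at least 52.0-fold higher on average. Of 37 Wnt genes 31 were above 0 (median 1.01, or 1.55 without bone 1) and 0 stood clear of the bone range. Sfrp2, a secreted Wnt modulator, had 1 count over bone and 34.8, 16.4, 4.40, 0 and 1.57 CPM in fibrous libraries. Wnt5a, a noncanonical ligand, was at 0, 0.581 and 1.85 CPM in bone and at 1.35, 2.38, 3.60, 8.64 and 15.03 CPM in fibrous libraries.

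Adhesion G protein-coupled receptors had 12 of 18 above 0 (median 0.40), and 3 did not overlap (16.7%, against 2.82% over all genes). The median was 1.54 without bone 1, 0.12 without bone 6, 0.25 without fibrous 2, 0.23 without fibrous 7 and -0.10 with haemoglobin as a covariate. Adgrf5 (ENSMUSG00000056492; chromosome 17, 43360451 to 43459557, plus strand), a receptor known from lung and vascular cells, was at 0.0452, 0.0895 and 2.38 CPM in bone and at 26.3, 13.3, 15.99, 8.75 and 11.7 CPM in fibrous libraries. Its log2 fold change was 5.12 (SE 1.58; edgeR adjusted p = 0.757, DESeq2 adjusted p = 0.00026). Adgrg2, an orphan receptor of epithelia, was at 0 counts in bone and at 0.355, 3.02, 4.75, 5.25 and 2.73 CPM in fibrous libraries, at least 80.2-fold higher on average. DESeq2 called 2 of the 18 higher and 1 lower, against 2.28% and 0.307% over all genes. The lower call was Adgrl4, at 10.8, 5.90 and 1.95 CPM in bone and at 0 CPM in every fibrous library but fibrous 6 (3.93 CPM).

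Cytokine genes were mixed: 21 of 30 were above 0 (median 0.49), with a median of -0.34 within L002 and 2.64 within XY.9274. Leaving out bone 1 gave 0.75, bone 2 gave 1.44 and bone 6 gave -0.33. The 2 that did not overlap (6.67%, against 2.82% over all genes) were Il33, an alarmin of stromal nuclei, and Cxcl10, an interferon-induced chemokine, both at 0 counts in bone. Il33 was at 8.53, 2.94, 2.00, 1.03 and 0.599 CPM in fibrous libraries, at least 75.2-fold higher on average. Cxcl10 was at 0.675, 4.68, 1.20, 3.68 and 3.45 CPM, at least 68.2-fold higher. Complement gene C4b was at 41.0 ± 11.95 CPM (SD, n = 3) in bone and 104 ± 51.5 CPM (n = 5) in fibrous libraries, with fibrous 4 inside the bone range. It did not pass (edgeR adjusted p = 0.769, DESeq2 adjusted p = 0.145). Of 15 tested complement genes 8 were above 0 and 7 below, with a median of 0.04, or 0.92 in L002 and 0.24 in XY.9274.

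Bone and cartilage genes overlapped between the groups. All 24 tested osteoblast genes had fold changes above 0, with a median of 0.61 and 0 members clear of the bone range. The median was 0.24 without bone 6 and 0.23 in L002, and 1.02 both without bone 1 and in XY.9274. Col1a1, the main collagen of bone, was at 25175, 10626 and 10979 CPM in bone and at 41156, 50069, 19380, 15154 and 15514 CPM in fibrous libraries (log2 fold change 0.84, SE 0.44). Ibsp, a mineral-binding protein of osteoblasts, was at 4336, 2344 and 499.6 CPM in bone and at 5523, 5268, 2851, 921 and 1243 CPM in fibrous libraries. Runx2, the master factor of osteoblasts, was at 28.9, 6.93 and 4.90 CPM in bone and at 38.0, 37.9, 17.0, 12.1 and 17.8 CPM in fibrous libraries. For these 3 genes fibrous 6 and 7 lay within the bone range and above bone 6. Phex, an osteocyte endopeptidase, was at 0.181, 0.0447 and 5.10 CPM in bone and at 6.61, 3.36, 5.20, 14.3 and 11.8 CPM in fibrous libraries. Its log2 fold change was 3.59 (SE 1.23; edgeR adjusted p = 0.757, DESeq2 adjusted p = 0.011). It was the 1 DESeq2 call among 12 osteocyte genes, against 2.28% called higher over all genes.

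The chondrocyte list showed a wide split within the bone group. Its summed level was 58695 and 30539 CPM in bone 1 and 2 but 689 CPM in bone 6, and between 12007 and 66315 CPM in the fibrous libraries. Col2a1, the cartilage collagen, made up 3.63%, 1.49% and 0.0276% of the counts in bone 1, 2 and 6 and between 0.687% and 4.61% in fibrous libraries. The list's median was -0.12 over the 8 libraries, -1.27 within L002 and 6.34 within XY.9274. Tendon and ligament genes also split, with a summed level of 8316, 4035 and 317 CPM in bone 1, 2 and 6. Their median was -0.34 within L002 and 8.62 within XY.9274. Chad, or chondroadherin, was at 2636, 4192 and 16.9 CPM in bone and at 921, 1152, 555, 1278 and 1668 CPM in fibrous libraries. Its log2 fold change was -0.80 (SE 1.49) in the 8 libraries and 6.45 within XY.9274.

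By edgeR the interaction of name series and tissue called 1 of 14635 genes (0.00683%), and 1638 reached an unadjusted p below 0.05 (11.2%). That gene was Susd5, a hyaluronan-binding membrane protein, at 198 and 175 CPM in bone 1 and 2, at 0.0662 CPM in bone 6 and between 102 and 317 CPM in the fibrous libraries. Its edgeR adjusted p was 0.033. Of the next 9 genes by p, Car12, Pax1, Chad, Mgp, Thbs3, Colgalt2 and Slc38a3 had the same pattern of a low value in bone 6, and none passed (edgeR adjusted p = 0.089 for each). Ints5 and Apaf1 ran the other way, with Apaf1 at 60.3 CPM in bone 6 and at most 0.0895 CPM in bone 1 and 2. The XY.9274 side of the interaction has bone 6 as its one bone library. Over all tested genes the fold changes of the 2 series had the same sign in 48.5%.

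**Figure D5:**
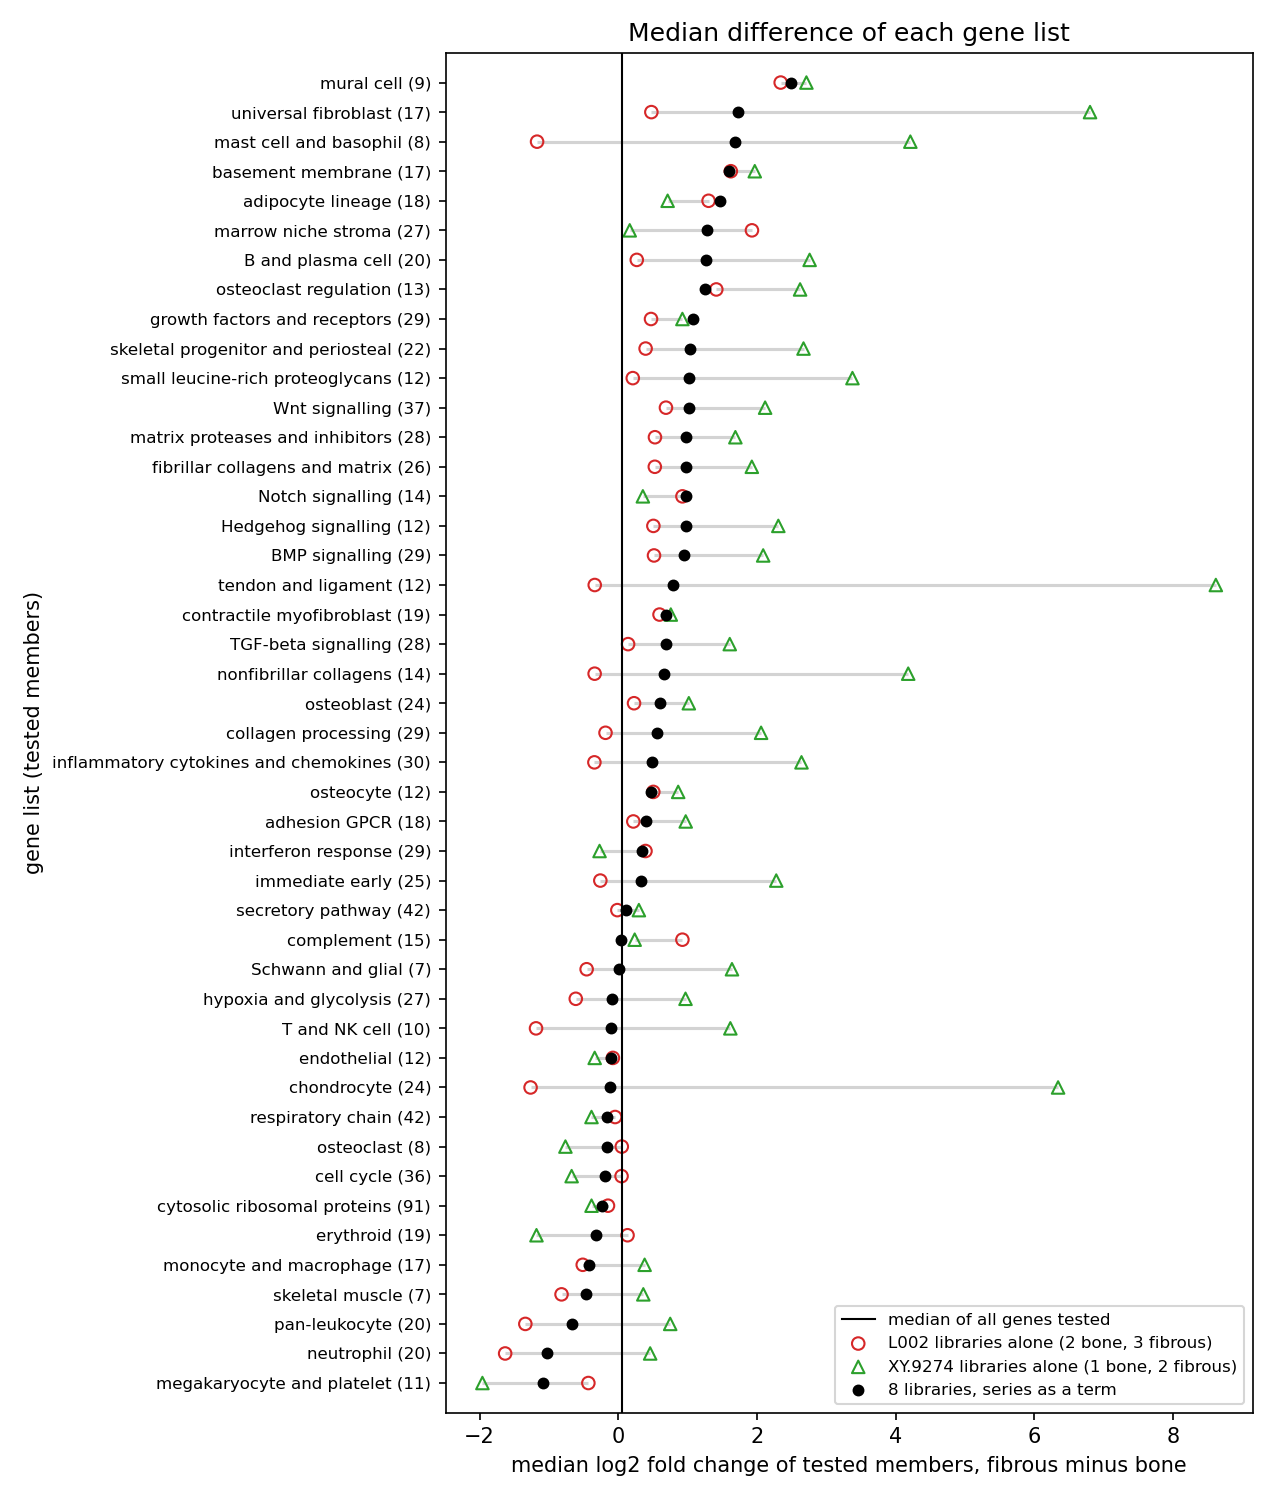
Median log2 fold change, fibrous minus bone, of the tested members of each of 45 gene lists (number tested in brackets) in the 8 libraries (black), in L002 alone (red circles) and in XY.9274 alone (green triangles). Mural, basement membrane, myofibroblast and osteocyte medians lie close together in both series, while chondrocyte medians stand at -1.27 and 6.34, and the vertical line marks the median of all genes, 0.05.

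Over the 8 libraries, lists of general cell functions had small medians, in both directions. Of 42 secretory pathway genes 27 were above 0 (median 0.12, or 0.22 without bone 2 or fibrous 4 and at or below 0.07 without bone 6, fibrous 2 or fibrous 3). Of 25 immediate early genes 16 were above 0 (median 0.32, or 0.73 without bone 1, 0.17 without bone 2, -0.24 without bone 6 and 0.16 without fibrous 6). The immediate early median was -0.26 in L002 and 2.28 in XY.9274. Summed over that list, the level was 8435 and 9489 CPM in fibrous 6 and 7 and between 2495 and 5058 CPM in the other libraries. Of 42 respiratory chain genes 41 were below 0 (median -0.16), of 91 ribosomal protein genes 87 (median -0.23) and of 36 cell cycle genes 32 (median -0.20). The cell cycle median turned to 0.061 without bone 6, 0.047 in L002 and 0.064 over all 13 libraries. Without bone 2 the respiratory chain median was -0.0043 and the ribosomal median -0.0057. None of the respiratory chain or cell cycle genes, and 2 of the ribosomal genes (2.20%, against 1.20% over all genes), lay below the bone range in every fibrous library. Ccnb1, the mitotic cyclin B1, was at 379 ± 63.6 CPM (SD, n = 3) in bone and 275 ± 69.7 CPM (n = 5) in fibrous libraries, Aurkb, a mitotic kinase, at 280 ± 17.1 and 210 ± 36.7 CPM, and Rpl3, a ribosomal protein, at 644 ± 102 and 509 ± 84.4 CPM. In total 31 of the 45 lists had a median above 0, among them 25 of the 26 lists of tissue and signalling programmes. The lists share members and were chosen with earlier results of these data known, so this tally is a description. Within L002 alone some programme medians, such as those of collagen processing and tendon genes, were below 0, while others were above 0.

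Shares of the counts taken by blood and cartilage genes overlapped between the groups. Haemoglobin genes took 3.10%, 6.93% and 7.13% of the counts in bone and 2.77%, 5.72%, 7.47%, 1.38% and 0.754% in fibrous libraries. The difference in mean log2 percent was -1.03 (2-sided exact permutation p = 0.25 over 56 splits, of which the smallest possible is 0.0179; adjusted p = 0.857 over 4 measures). For the neutrophil list the difference was -0.52 (exact permutation p = 0.714), for immunoglobulin genes -0.47 (p = 0.857) and for Col2a1 1.52 (p = 0.482), all with an adjusted p of 0.857. Within the name series the 4 exact permutation p-values lay between 0.2 and 0.833 over 30 splits. The neutrophil list summed to between 2286 and 45254 CPM in bone and between 1326 and 28684 CPM in fibrous libraries. Its median log2 fold change was -1.03, and 1.09 without bone 2.

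Genes of B and plasma cells had 15 of 20 above 0 (median 1.26). The list summed to 117, 1740 and 675 CPM in bone and to 333, 122, 142, 2539 and 2859 CPM in fibrous libraries, highest in fibrous 6 and 7, where Ccr7 was also highest. The median was 0.27 in L002, 2.76 in XY.9274, 3.46 without bone 2, 0.50 without bone 6 and -0.79 over all 13 libraries. The part of B cells in the Ccr7 values was not tested.

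Fibrous 6 and 7 carried genes of basophils. Mcpt8, a basophil protease, was at 94.1 and 130 CPM in these 2 libraries and at most at 1.15 CPM in the other 6. Prss34, another basophil protease, was at 292 and 360 CPM there and at most at 1.40 CPM elsewhere. The mast cell and basophil list, with 8 tested genes, summed to 654 and 723 CPM in fibrous 6 and 7 and to between 27.4 and 129 CPM in the rest. Hspa1b, a heat shock chaperone, was at 7.14, 13.4 and 4.04 CPM in bone and at 23.1, 36.9, 27.8, 552 and 887 CPM in fibrous libraries (log2 fold change 2.64, SE 1.15; DESeq2 adjusted p = 0.070). Egr3, an immediate early factor, was at 0 counts in bone and at 0.178, 0.638, 0.489, 0.926 and 3.30 CPM in fibrous libraries, at least 27.6-fold higher on average. The part of these cells and of stress genes in the values of fibrous 6 and 7 was not tested.

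Macrophage genes had a median of -0.43 over 17 tested members, with 6 above 0, and 2 did not overlap (11.8%, against 2.82% over all genes). The sign of the median turned without bone 2 (1.73), by limma-voom (0.55), in XY.9274 (0.38) and without the series term (0.13). Mertk, a receptor for the uptake of dying cells, was at 0.0904, 0.0895 and 1.62 CPM in bone and at 7.39, 12.6, 3.87, 5.29 and 10.7 CPM in fibrous libraries (log2 fold change 4.53, SE 1.30; DESeq2 adjusted p = 0.00059). Cd163, a scavenger receptor for haemoglobin, was at 0, 0.0447 and 1.99 CPM in bone and at 3.94, 5.02, 3.15, 2.33 and 5.49 CPM in fibrous libraries (DESeq2 adjusted p = 0.063), also without overlap. Among the lists of other cells, Trac of T cells and Actn3 of muscle likewise lay above the bone range in every fibrous library. They were 1 of 10 tested T and NK cell genes and 1 of 7 muscle genes, against 2.82% over all genes. Most members of both lists ran the other way, with 6 of 10 and 5 of 7 below 0 and medians of -0.10 and -0.47. The summed level of the macrophage list ran from 300.1 to 4980 CPM in bone and from 265 to 3610 CPM in fibrous libraries, and Adgre1, the F4/80 antigen, was at 7.20 CPM or less in all 8.

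Whether the tissue difference differs between libraries over and under the Lepr threshold was tested as an interaction over all 13 libraries. In L002, the libraries under the threshold carry the token Lin (bone 3, bone 4 and fibrous 5) or D (fibrous 1) in their names. The kept L002 libraries carry the token plus. Within L002, Lepr class and this naming therefore cannot be told apart. By edgeR 0 of 13294 genes passed (0%; the smallest adjusted p was 0.115), while 804 reached an unadjusted p below 0.05 (6.05%). Without bone 5, 1 of the libraries under the threshold, 6 genes passed: Flna, C2cd2, Smarcal1, Rbm6, Kctd11 and Smarcc2. In the 5 libraries under the threshold the fitted difference of Cd34 was -0.95 and that of Skil -2.51, against 9.33 and 4.46 here, and neither interaction passed (edgeR adjusted p = 0.805 and 0.728). For Adgrf5 the values were 5.39 under the threshold and 5.12 here, and for Acvr1 they were 4.11 and 4.21. Values under the threshold come from the fit of all 13 libraries and the others from the separate fit of the 8. Within the fit of 13 the interaction was 10.3 for Cd34, 6.90 for Skil, -0.94 for Adgrf5 and -0.27 for Acvr1 (log2).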

How the data were processed

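Each of 13 libraries of flow-sorted mouse cells had 1 column in a table of raw counts per gene, deposited by the authors with no normalisation visible in the whole-number values. The submitters' processing notes name edgeR and the builds mm10 and hg38 without a role. Which aligner, counting program and strand setting were used is not given in the sources used here. Symbols were found for all 23211 gene IDs. Coordinates are GENCODE M21 (GRCm38/mm10), and promoter and start site positions are RefSeq GRCm38.p6.

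Groups came from the labels, and 8 libraries with Lepr at 5 raw CPM or more were kept (22409369 to 44302166 counts). Genes passing filterByExpr were tested with edgeR 4.0.16 in R 4.3.3 (TMM factors, robust quasi-likelihood test, name series and tissue as terms), with Benjamini-Hochberg adjustment at 0.05 over all tested genes. Standard errors were derived from the fold change and the square root of its F statistic. DESeq2 1.42.0 and limma 3.58.1 (voom) were alternatives, as were RLE factors, other filters, further covariates, each name series alone, other Lepr thresholds and leaving out each library. Scripts were tested on simulated data with 200 changed genes. Figures used Python 3.11.15 and matplotlib 3.10.9.

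Named genes are the 4 markers, the 15 genes of smallest p in each direction with at least 5 CPM in the higher group (predicted gene names left out), up to 4 tested members of smallest p in each of 45 lists, and Adgrf5. Some of these are not reported here. Tmem117, Cdh5, Emcn, Robo4, Flt1, Tie1, Sox18, Cldn5, Mmrn2, Flt4, Ushbp1, Col4a2, Lamb1, Itga6, Myh11, Adgre1 and the genes named for the 2 interactions were chosen after their values were seen. The members and lists were chosen with earlier results of these data known. Genes at 0 counts in bone are given against a floor of 3 counts over the group. Ratios for genes with 1 to 3 counts carry exact 95% intervals, and both cover counting error only.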

Additional observations from a re-analysis of the deposited data

Results flagged for a closer look

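In 7 of 101 measures examined in the 5 fibrous libraries, 1 library stood apart from the other 4, as judged by its gap to the nearest library over the whole range of log2(CPM + 1). Chance marks about 1 in 20. Fibrous 2 was the high library for Sned1 (gap over range 0.817), Meox2 (0.720) and Col4a2 (0.726). For Peak1, a pseudokinase of the cytoskeleton, the value was 0.783, with fibrous 3 high. Fibrous 4 stood apart for Gmnn (0.721), where it was high, and for Tgfbr2 (0.716), where it was low. Fibrous 3 was low for Tmem117 (0.741).

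The tissue difference of Susd5 was larger in XY.9274 than in L002 by 12.57 on the log2 scale (SE 0.77, edgeR adjusted p = 0.033), with bone 6 as the only bone library of XY.9274.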

How the results depend on the processing

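Of 93 genes recomputed, 87 kept the sign of their fold change under every alternative in which they were tested. Over all 13 libraries the sign turned for Ccr7 (-0.70), Skil (-0.18), Cebpb (-0.13), Mcpt8 (-1.48) and Prss34 (-4.49). Cebpb also turned with a Lepr threshold of 1 CPM (-0.60), and Chad turned by limma-voom (0.68) and within XY.9274 (6.45). The causes were not tested. DESeq2 called 334 genes higher and 45 lower where edgeR called 0 and 0. Leaving out 1 library at a time, edgeR called 0 to 1 genes lower, the 1 being Igkv4-63 without bone 1, and the interaction with Lepr class called 0 to 6 genes. DESeq2 then called 163 to 730 genes higher and 22 to 164 lower. Genes clear of the bone range numbered 482 to 1441 above and 215 to 821 below. These leave-one-out counts by DESeq2 and by range were chosen after seeing the data, and groups with fewer libraries overlap less often by construction. The differences in mean log2 percent ran from -1.42 to -0.58 for haemoglobin genes and -1.71 to 0.44 for neutrophil genes. They ran from -1.78 to 0.60 for immunoglobulin genes and -0.61 to 2.90 for Col2a1. No paired analysis was possible because the replicate numbers follow accession order and pair no libraries. With 3 bone libraries of 22409369 to 30286397 counts, a gene at 0 in bone is not shown to be absent.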
